A study of Populus tremula x Populus alba with 3 samples.

Results

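The 49 genes described here carry a description that names lipids, lipases, fatty acids or their carriers, in the authors' deposited table of 2151 genes that differed between PtaDML10 RNAi lines and wild type. They were chosen by words in those descriptions, with kinases and lipoxygenases left out. This took in 51 genes before 3 named epidermal genes were set aside, and not all of those 3 had matched the words. Every gene in that table had passed the authors' own test of the RNAi lines against wild type, on the same 3 libraries that are described below. The values of that contrast, including the calls and standard errors (SE) of a fit over all genes, therefore only describe the members and are no independent test of them. The count table holds 41335 poplar genes in all.

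RNA came from apical buds of the hybrid poplar Populus tremula x Populus alba, INRA clone 717-1B4. The groups are PtaDML10 RNAi, with 1 library for line KD2 and 1 for line KD5, and wild type, with 1 library. PtaDML10 is named as a DEMETER-like DNA demethylase, an enzyme class that removes methylated cytosine from DNA. Per the labels, 15 plants of each genotype gave 1 bud each, still closed at stage 0. All plants had 4 weeks of long days (16 h light, 21 °C), then 12 weeks of short days (8 h, 19 °C) and 4 weeks at 4 °C before their return to long days. The labels do not give the RNAi promoter or say whether buds were pooled, and each line is a separate transgenic line with no replicate library of its own.

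Lipids serve a bud as membranes, as stored fuel and as the cutin and wax that seal its surface. Fatty acids are built on acyl carrier protein in the plastid, and ketoacyl-CoA synthases in the endoplasmic reticulum lengthen them to the very long chains of wax and cuticle. Lipases and phospholipases release fatty acids from stored oil and membranes, and beta-oxidation in the peroxisome shortens them for energy. Lipid-transfer proteins are small secreted proteins with a cavity that holds a lipid, and many are made in the epidermis, where they are linked to the cuticle and to defence.

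The libraries held 4509887 counts (KD2), 4692056 counts (KD5) and 6829583 counts (wild type). The PtaDML10 locus, Potri.010G234400, whose identifier comes from published naming and not from the files, had 13.2 CPM (counts scaled to library size) in the library labelled KD2 and 17.0 CPM in that labelled KD5, against 9.59 CPM in wild type. The log2 fold change was 0.66 (SE 0.31), not called in the fit over all genes, though scaling by library size alone called it higher. These values go against the direction of a knockdown, and the reason was not tested. Each direction stated for KD2 and KD5 is therefore only as good as those labels. The Arabidopsis matches of the meristem gene STM, the dormancy gene DRM1 and the epidermal gene PDF1 were all detected. Tissue markers were looked up only in the authors' table, which a gene enters only with counts. Their detection was therefore largely fixed and is no check of tissue. Of 17 Arabidopsis loci taken as tissue markers, 8 matched a gene in the authors' table, 16 genes in all, and none of these had 0 counts in a library. Of the 15 that are not members, 14 were called lower in the RNAi libraries, but each had already passed the authors' test of this contrast, so the count describes that table and says nothing beyond that choice. Of all genes in that table, 64.5% were lower, and of all genes tested here 8.05% were called lower. Their summed levels, in the libraries labelled KD2 and KD5 against wild type, were 106 and 145 against 235 CPM for 2 shoot meristem genes, 710 and 701 against 1688 CPM for 3 green leaf genes, and 31 and 37 against 71 CPM for 4 phloem genes. Dormant bud and secondary xylem had 1 gene each, at 1474 and 1478 against 3418 CPM and at 5.25 and 6.97 against 15.1 CPM. Whether tissue makeup has a part in the lipid gene values was not tested. In such whole-bud RNA, fewer cells of a type and less RNA per cell cannot be told apart.

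Of the 49 members, 37 were lower and 12 higher in the RNAi libraries by the authors' deposited table, which is 75.5% lower, against the 64.5% over that whole table. The members were then placed by role, with 6 genes of synthesis, 16 of breakdown and 21 of transfer or binding. A further 6 fell outside these roles. In a quasi-likelihood fit with edgeR over all genes that passed the count filter, 47 members were tested, and 33 were called lower and 12 higher at an adjusted p below 0.05. Over all 23089 genes tested, 13.1% were called, with 8.05% lower and 5% higher. Because the same contrast chose the members, their share says nothing beyond that choice. The median log2 fold change of the 47 was -0.79, against 0.02 over all genes tested. In every one of the 49 members both RNAi libraries lay on the same side of wild type, a count that the choice largely fixes.

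Transfer and binding genes were the largest group. The family of small lipid-transfer proteins is mostly described under the bifunctional inhibitor, lipid-transfer and seed storage 2S albumin superfamily. That superfamily name does not show that each protein is small or carries a lipid. The family had 12 members, with 11 calls lower and 1 higher. The median of their log2 fold changes was -0.88. Their counts summed to 1008 CPM in the library labelled KD2 and 966 CPM in that labelled KD5, against 1784 CPM in wild type. In shares of all counts this is 0.106% and 0.10% in the libraries labelled KD2 and KD5, against 0.161% in wild type. The gene with the most counts, Potri.016G136000, stood at 446 and 341 CPM in the libraries labelled KD2 and KD5, against 802 CPM in wild type. Its log2 fold change was -1.03 (SE 0.15), and without it the other 11 summed to 561 and 625 CPM, against 982 CPM.

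Potri.006G008300 had the lowest adjusted p-value (FDR) of all members in the authors' deposited table, at 1.82e-08. It had 3 and 4 counts in the libraries labelled KD2 and KD5, against 48 counts in wild type, which is 0.63 and 0.82 CPM against 7.80 CPM. The ratio of RNAi to wild type was 0.0930, with an exact 95% counting interval from 0.0355 to 0.207. A second gene with the same Arabidopsis match, AT3G22142, differed far less. This gene, Potri.T162900, had 124 and 126 CPM in the RNAi libraries, against 211 CPM in wild type, a log2 fold change of -0.75 (SE 0.16). The 2 copies of this match therefore differed in size of change, at -3.38 (SE 0.70) and -0.75 on the log2 scale.

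Potri.016G135500 matches LTP1, a lipid-transfer protein of the Arabidopsis epidermis. It had 10 counts in the library labelled KD2 and 2 in that labelled KD5, against 44 in wild type. Its identifier lies next to that of a second LTP1 match, Potri.016G135400, which is not among the 49 and had 351 and 356 CPM, against 716 CPM. How the counting divided reads between such near neighbours is not given in the sources used here, so the value of the weaker copy is uncertain. DIR1 (Potri.002G251000), known in Arabidopsis for carrying a signal of systemic resistance, had 101 and 130 CPM in the libraries labelled KD2 and KD5, against 218 CPM in wild type. The 2 genes matching AT2G37870 stood close together, with log2 fold changes of -0.87 (Potri.008G141000) and -0.81 (Potri.010G100600). The remaining lower members, Potri.004G096000, Potri.006G065500, Potri.008G061800 and Potri.009G158100, lay between -0.93 and -0.72. Against them stood Potri.003G111300, the only member of the family that was higher, with 67.8 and 81.2 CPM in the RNAi libraries, against 44.4 CPM in wild type (log2 fold change 0.75, SE 0.19).

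**Figure D1:**
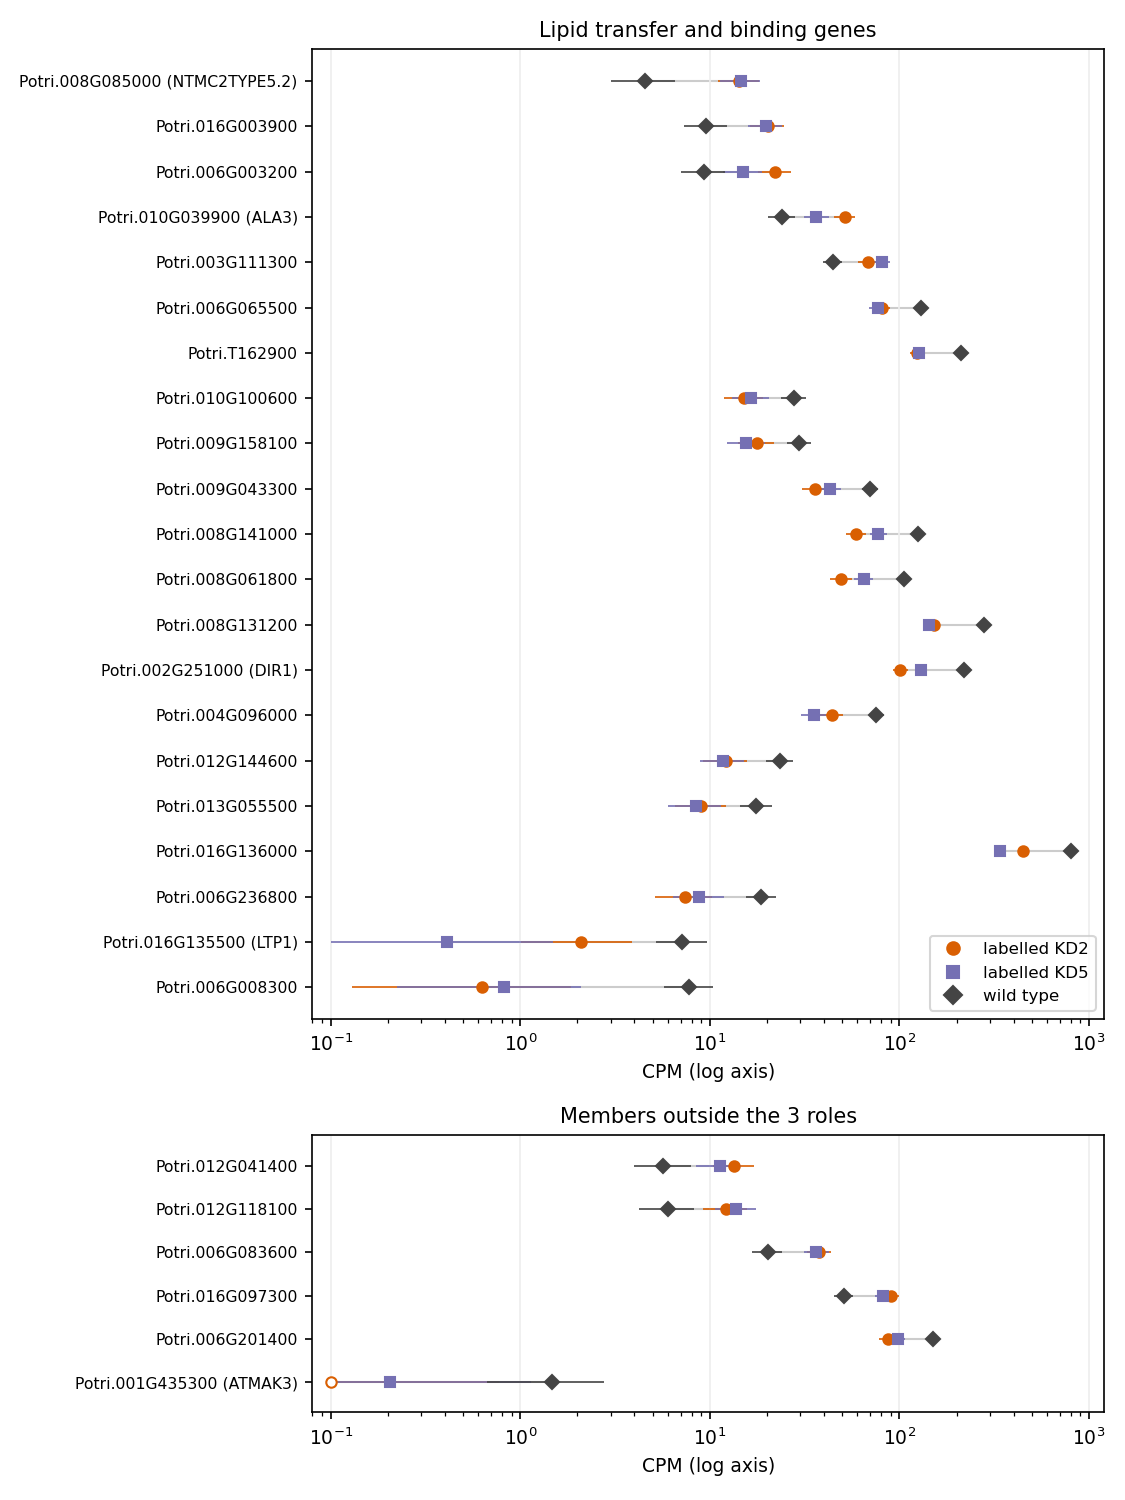
CPM on a log axis of each transfer or binding gene (upper panel) and of the 6 members outside the 3 roles (lower panel), in the libraries labelled KD2 and KD5 beside wild type; bars are exact 95% Poisson intervals for counting error, cut off at 0.1 CPM, and an open symbol at 0.1 CPM stands for 0 counts. Genes are sorted by log2 fold change, untested ones last, and for every gene wild type lies outside the pair of RNAi libraries. The choice of members largely fixes this position of wild type.

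The genes that bind lipids through a C2 domain, a fold that docks on membranes when calcium is present, were divided. Calls went to 3 of the 6 members in each direction, and the median was 0.08. Potri.008G085000, the match of NTMC2TYPE5.2, had 14.3 and 14.6 CPM in the libraries labelled KD2 and KD5, against 4.55 CPM in wild type. Its log2 fold change of 1.66 (SE 0.37) was the highest of all members. Both genes matching AT1G03370, described as C2 and GRAM domain proteins, were higher. Potri.016G003900 had 20.2 and 19.7 CPM against 9.59 CPM, and Potri.006G003200 had 22.0 and 15.0 CPM against 9.27 CPM in wild type. On the other side, Potri.013G055500, Potri.012G144600 and Potri.009G043300 stood at log2 fold changes of -1.01, -0.97 and -0.83. Potri.013G055500 is described as a phosphoribosyltransferase with a C2 domain, and its 9.03 and 8.40 CPM in the RNAi libraries compared with 17.6 CPM in wild type.

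A flippase and a pair of genes described under lipid transport complete the group. ALA3 (Potri.010G039900) is an ATPase that moves phospholipids from one face of a membrane to the other. It had 51.4 CPM in the library labelled KD2 and 36.5 CPM in that labelled KD5, against 23.9 CPM in wild type. The genes described as polyketide cyclase, dehydrase and lipid transport proteins were both lower. Potri.008G131200 had 152 and 143 CPM against 278 CPM, and Potri.006G236800 had 7.35 and 8.81 CPM against 18.7 CPM in wild type.

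Genes placed under breakdown, by words in their descriptions or by hand, were mostly lower. Among the 15 tested, 12 calls were lower and 2 higher, and their log2 fold changes had a median of -0.81. By words alone 12 were tested, with 9 calls lower and 2 higher and a median of -0.80. The group may hold proteins that do not break down lipids, so no direction of lipid breakdown is read from it. The 7 GDSL lipases belong to a large plant family of esterases and acylhydrolases, some of which build cutin. Of the 6 tested, 4 were called lower and 1 higher. Potri.019G024600, Potri.019G024700 and Potri.019G024800 have consecutive identifiers and the same match, AT5G33370. Potri.019G024600 had 13.6 and 8.61 CPM in the libraries labelled KD2 and KD5, against 29.3 CPM in wild type (log2 fold change -1.40, SE 0.26). Potri.019G024800 had 130 and 104 CPM against 185 CPM (log2 fold change -0.66, SE 0.17). Potri.019G024700 had 5 and 2 counts against 23 counts and was not called, at -2.33 (SE 0.95). All 3 were lowest in the library labelled KD5, and a split of reads between them cannot be checked from gene counts.

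Among the other GDSL lipases, Potri.006G166800 had 131 CPM in both RNAi libraries, against 203 CPM in wild type. Potri.011G076400 had 14.5 and 10.9 CPM against 22.9 CPM. Potri.007G036300 went the other way, with 19.1 and 17.8 CPM in the libraries labelled KD2 and KD5, against 6.02 CPM in wild type, a log2 fold change of 1.61 (SE 0.32). Potri.019G008500 had 1 and 0 counts in the RNAi libraries, against 10 in wild type, and did not pass the count filter.

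Genes described as enzymes that cut phospholipids and stored oil stood on both sides. Phospholipase D alpha 1 (Potri.003G032800), which releases phosphatidic acid from membranes, had 23.1 and 23.4 CPM in the libraries labelled KD2 and KD5, against 47.5 CPM in wild type, a log2 fold change of -1.03 (SE 0.21). NPC2 (Potri.001G275500), a phospholipase C that yields diacylglycerol, had 61.7 and 74.0 CPM against 118 CPM. LysoPL2 (Potri.003G059200) had 11.1 and 13.3 CPM against 21.5 CPM. Its place here rests only on its description as a lysophospholipase, and what the enzyme acts on was not tested. LysoPL2 was the member nearest to the authors' limit, with an FDR of 0.0498 in the authors' deposited table. No gene just outside that limit carries a description here. SDP1 (Potri.006G043800) is the patatin-like lipase that starts the breakdown of seed oil in Arabidopsis. It was the one lipase of this kind that was higher, with 16.6 and 22.1 CPM in the RNAi libraries, against 9.43 CPM in wild type (log2 fold change 1.04, SE 0.29).

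The 3 beta-oxidation genes, moved to breakdown by hand, were all called lower, with a median of -0.92. KAT2 (Potri.001G051900), the thiolase of the last step, had 63.6 CPM in the library labelled KD2 and 91.2 CPM in that labelled KD5, against 147 CPM in wild type. The pair matching ECI3, an enoyl-CoA isomerase needed for unsaturated fatty acids, had 18.5 and 18.7 CPM against 37.1 CPM (Potri.008G164900) and 25.8 and 23.6 CPM against 40.8 CPM (Potri.010G073700). The authors' deposited table describes ECI3 as a hydroxyacyl-CoA dehydratase. A pair of genes described as lipase or lipooxygenase with a PLAT domain, a lipid-binding fold, matched AT2G22170. Potri.007G091100 had 160 and 221 CPM in the libraries labelled KD2 and KD5, against 358 CPM in wild type, and Potri.005G076900 had 136 and 162 CPM against 234 CPM. Whether these proteins are active lipases is not stated in the files.

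The 6 synthesis genes had 4 lower calls and 1 higher, and their log2 fold changes had a median of -0.68. KCS10 (Potri.006G218000), also called FIDDLEHEAD, is a ketoacyl-CoA synthase of the Arabidopsis epidermis, where its loss makes organs fuse. It had 190.0 CPM in the library labelled KD2 and 144 CPM in that labelled KD5, against 278 CPM in wild type (log2 fold change -0.74, SE 0.16). KCS12 (Potri.001G234500) had 11 and 8 counts in the RNAi libraries, against 36 in wild type, and was not called at -1.56 (SE 0.62). KCS19 (Potri.013G119800) was the only synthesis gene that was higher, with 19.7 and 18.2 CPM in the libraries labelled KD2 and KD5, against 9.76 CPM in wild type. The 3 ketoacyl-CoA synthases thus did not share a direction.

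Acyl carrier proteins hold the growing chain during fatty acid synthesis. ACP4 (Potri.012G105300), a plastid form, had 35.1 and 40.2 CPM in the libraries labelled KD2 and KD5, against 60.6 CPM in wild type. The mitochondrial form mtACP2 (Potri.019G055300) had 58.2 and 63.9 CPM against 96.1 CPM. FAD8 (Potri.001G252900), a plastid desaturase that makes trienoic fatty acids and is known in Arabidopsis for its response to cold, had 96.6 and 88.3 CPM against 148 CPM. The log2 fold changes of these genes were close, at -0.69 (SE 0.20), -0.65 (SE 0.18) and -0.68 (SE 0.17).

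**Figure D2:**
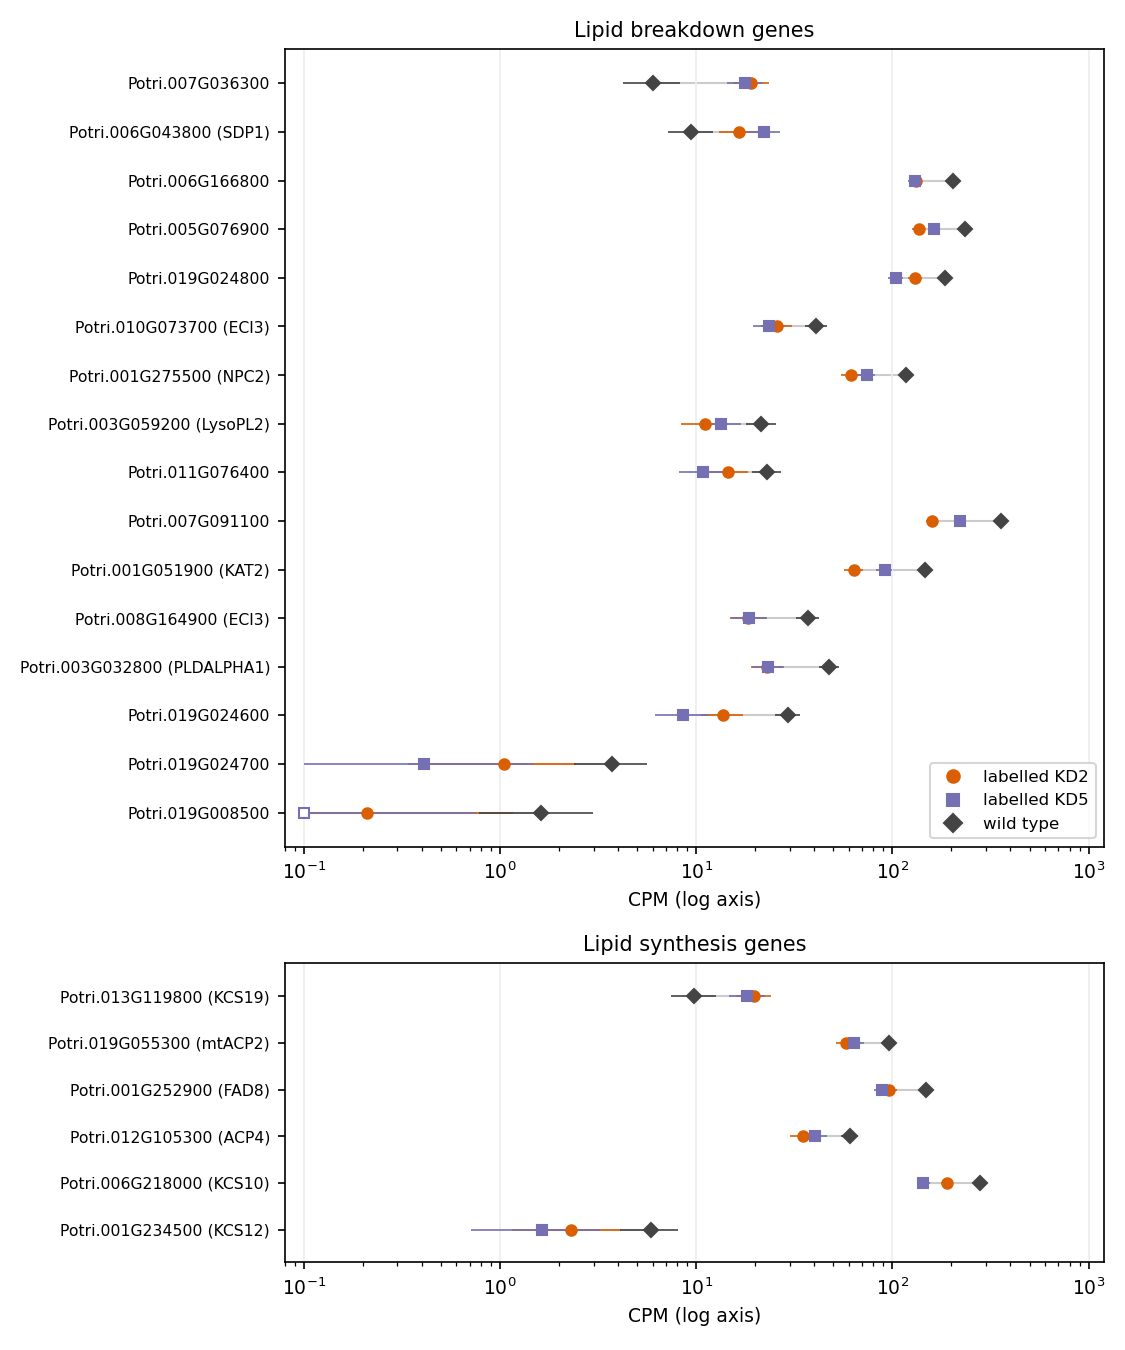
CPM on a log axis of each breakdown gene (upper panel) and synthesis gene (lower panel), in the libraries labelled KD2 and KD5 beside wild type, sorted by log2 fold change with untested ones last; bars are exact 95% Poisson intervals for counting error, cut off at 0.1 CPM, and an open symbol at 0.1 CPM stands for 0 counts. KCS19, SDP1 and Potri.007G036300 are the enzymes with wild type on the left, and the remaining enzymes have wild type on the right.

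The 6 members outside these roles include 4 that the words took in although their enzymes are not lipid enzymes. These are N-acyltransferases, which move an acetyl or similar group from coenzyme A to a nitrogen, often on a protein. The 3 tested were all called higher. Potri.006G083600 and Potri.016G097300, described with a RING, FYVE or PHD zinc finger, had 37.8 and 36.5 CPM against 20.2 CPM and 90.1 and 82.0 CPM against 50.9 CPM in wild type. Potri.012G041400 had 13.4 and 11.3 CPM against 5.69 CPM. The match of ATMAK3 (Potri.001G435300) had 0 and 1 counts in the RNAi libraries, against 9 in wild type, and did not pass the filter. Without these 4 genes, 9 members were called higher and 33 lower. The remaining pair has lipid-sensing domains. Potri.012G118100, described with a TLC domain, had 12.2 and 13.7 CPM against 6.02 CPM, and Potri.006G201400, with an MD-2-related lipid recognition domain, had 86.5 and 97.8 CPM against 151 CPM in wild type.

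These values depended on how the libraries were scaled. The lower members had more counts than the higher ones, with a median of the mean CPM of 49.5 against 16.0, which is a matter of read numbers since CPM takes no account of gene length. Among all tested genes, log2 fold changes also declined with abundance, with a median of 0.16 under 10 CPM, 0.05 from 10 to 50 CPM, -0.11 from 50 to 200 CPM and -0.41 above. Among the 4029 tested genes from 50 to 200 CPM, 17.3% were called lower and 4.47% higher. Among the 723 above 200 CPM, where Potri.016G136000, KCS10 and Potri.007G091100 lie, 48.5% were called lower and 0.553% higher. A loess normalization that removes this trend brought the median of the members to -0.62, and 23 members remained called lower and 7 higher, all 30 in the same direction as before. Under loess 2.75% of all tested genes were called higher and 4.06% lower. By role, 14 of 16 lower calls were kept in transfer and binding, 8 of 12 in breakdown and 1 of 4 in synthesis, that of ACP4. Potri.016G136000 and KCS10 were among the calls lost, at -0.55 and -0.43. Scaling by library size alone moved the median of all tested genes by 0.22, to 0.24, and that of the members to -0.58, with 22 called lower and 12 higher. Of all tested genes 4.23% were then called lower and 13% higher. DESeq2 called 9 members lower and 0 higher, and of the 9212 genes to which it gave an adjusted p it called 5.34% lower and 0.434% higher. At an unadjusted p under 0.05, DESeq2 had 27 members lower and 8 higher. The share of all genes under that unadjusted limit was not counted. Since the same contrast chose the members, nothing beyond that choice is read from the 27 and 8. Under each scaling tried, all 47 tested members kept their direction.

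**Figure D3:**
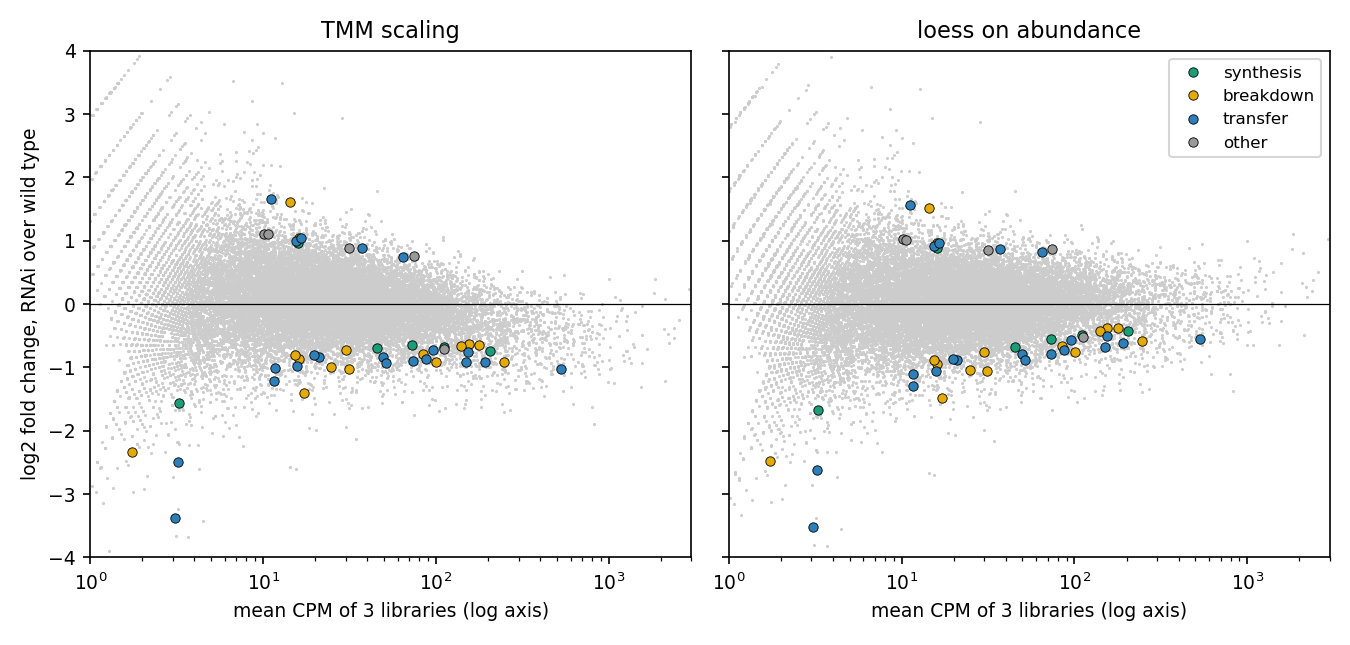
Log2 fold change, RNAi over wild type, against mean CPM of the 3 libraries (log axis), for all tested genes within the axes (grey) and the 47 tested members coloured by role, with TMM scaling (left) and after loess normalization on abundance (right). On the left the grey cloud bends below 0 at high CPM, and on the right the members of high CPM lie nearer to 0.

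The RNAi lines could also be set against each other, a comparison that the choice of members did not use directly. With 1 library a line it has no test, and only counting error can be given. Over all 47 tested members the median log2 ratio of KD2 to KD5, with a prior count of 2, was 0.03, and over all tested genes it was 0.00. For 16 of the 47, or 34.0%, the exact 95% counting interval of the ratio lay clear of 1, against 20.3% of all tested genes. The interval narrows with the number of counts, so this share depends on abundance. From 50 to 200 CPM, 9 of 17 members and 30.3% of 4029 genes had such an interval. From 10 to 50 CPM, where 23 members lie, only Potri.019G024600, Potri.006G003200 and ALA3 had one. The share of all genes was not counted in that range, so no excess among the members is read from these counts.

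Among these 16 members 8 lay higher in the library labelled KD2 and 8 lower, where 9.48% and 10.8% of all tested genes did. The 6 tested GDSL lipases had ratios from 1.00 (0.897 to 1.12) at Potri.006G166800 to 2.56 (0.419 to 26.9) at Potri.019G024700, the latter on 5 and 2 counts. For 2 of the 6 the interval was clear of 1, and both of these match AT5G33370 and may share reads. The share of all genes with a ratio above 1 was not counted, so no trait of the family is read from these ratios. The ratio was 1.59 (interval 1.06 to 2.40) for Potri.019G024600 and 1.25 (1.11 to 1.41) for Potri.019G024800. KCS10 had a ratio of 1.32 (1.20 to 1.46), and Potri.016G136000 one of 1.31 (1.23 to 1.40). LTP1 (Potri.016G135500) had the largest, 5.12 (1.09 to 48.1), on 10 and 2 counts. ALA3, at 1.41, Potri.006G003200, at 1.47, and Potri.004G096000, at 1.24, complete the list.

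Lower in the library labelled KD2 were KAT2, with a ratio of 0.698 (0.601 to 0.809), and both PLAT domain genes, with 0.723 (0.658 to 0.794) for Potri.007G091100 and 0.838 (0.754 to 0.931) for Potri.005G076900. NPC2 stood at 0.834 (0.713 to 0.976). A set of lipid-transfer proteins did the same, namely DIR1 at 0.779, Potri.008G061800 at 0.759, Potri.008G141000 at 0.762 and Potri.003G111300 at 0.836. The small lipid-transfer proteins were thus divided between the lines, with 3 intervals above 1 and 4 below it. Since these lines also stand for single libraries, line and library cannot be told apart.

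Of the 16 tissue marker genes, 6 had an interval of the ratio of KD2 to KD5 clear of 1. Of all tested genes 20.3% did, and 30.3% of those from 50 to 200 CPM. This share depends on abundance, so no tissue difference between the lines is read from these 6. The 2 epidermal matches of PDF1, Potri.002G060800 and Potri.005G200900, had ratios of 1.28 (1.15 to 1.44) and 1.13 (1.05 to 1.21). The LTP1 matches that are not members had 1.25 (1.18 to 1.32) at Potri.004G086600 and 0.987 (0.922 to 1.06) at Potri.016G135400. The 5 epidermal genes, 1 of them a member, summed to 1439 and 1252 CPM in the libraries labelled KD2 and KD5, against 2550.3 CPM in wild type. The STM matches Potri.011G011100 and Potri.004G004700 had ratios of 0.754 (0.650 to 0.873) and 0.687 (0.566 to 0.831). DRM1 had a ratio of 0.997 (0.965 to 1.03), and the intervals of the 3 green leaf genes, the xylem gene and all 4 phloem genes included 1. The part of these tissues in the lipid gene ratios was not tested.

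**Figure D4:**
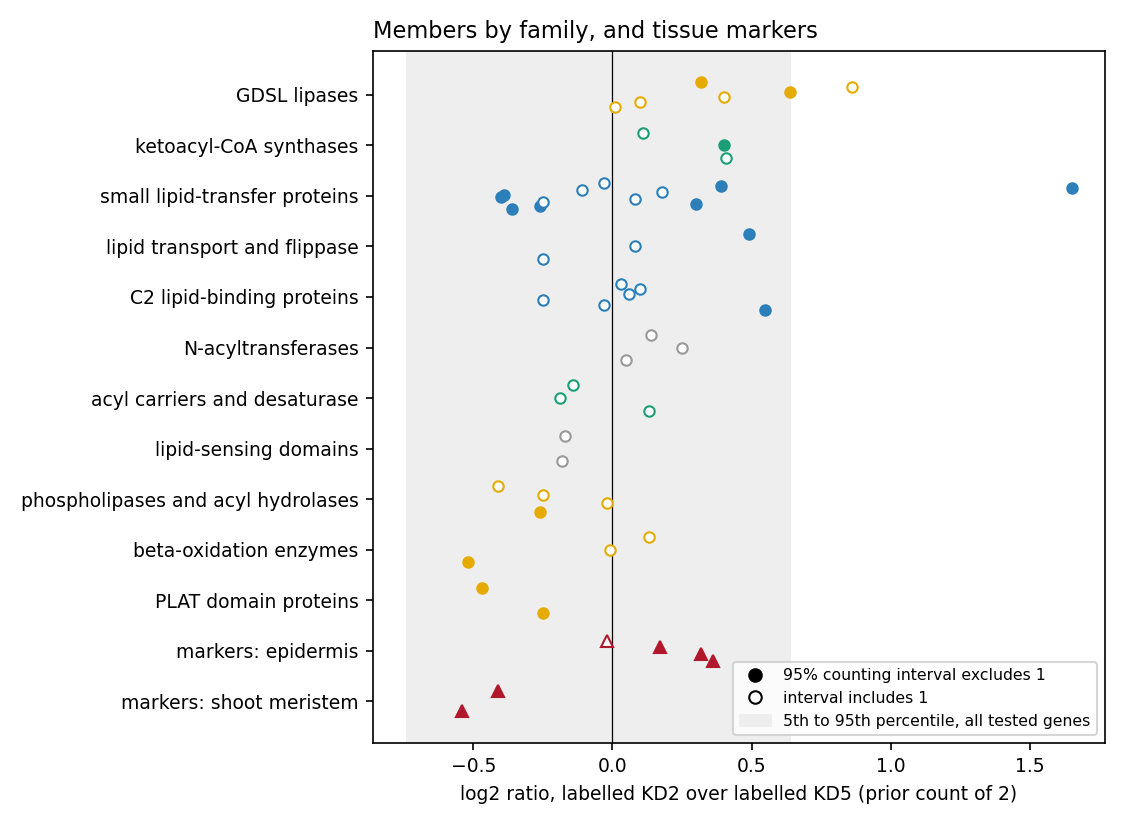
Log2 ratio of the library labelled KD2 to that labelled KD5, with a prior count of 2, for the 47 tested members by family (circles, coloured by role as synthesis green, breakdown yellow, transfer blue, other grey) and for epidermal and shoot meristem markers that are no members (triangles). Filled symbols have an exact 95% counting interval of the ratio clear of 1, and the grey band spans the 5th to the 95th percentile of all tested genes, from -0.74 to 0.64. GDSL lipases lie at or above 0, most of them with open symbols, and PLAT domain genes lie below 0.

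Members that share an Arabidopsis match were set side by side. The 49 genes matched 42 loci, and 6 loci had more than 1 member, 13 genes in all. In all 6 the copies lay on the same side of wild type, among genes that had been chosen for a difference. Copies with a common match also share sequence and may share reads, so they are not independent.

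A list of further terms such as sterol, wax, thioesterase, inositol and malate synthase matched 13 more genes in the authors' deposited table. Of these 6 were called higher, 4 lower and 3 were not called. The word inositol alone took in 5 genes that are not of lipid chemistry, among them the stress sensor IRE1-1, named after its values were seen, and inositol phosphate kinases, with 3 called higher and 2 not called. The other 8 had 3 calls higher and 4 lower, and 1 was not called. They were likewise listed by the authors for this contrast, so the counts describe that table. Malate synthase (MLS, Potri.015G092000), an enzyme of the glyoxylate cycle that uses the acetyl-CoA of beta-oxidation, had 153 CPM in the library labelled KD2 and 226 CPM in that labelled KD5, against 297 CPM in wild type. Its ratio of KD2 to KD5 was 0.678 (0.617 to 0.746), beside 0.698 for KAT2 and 0.991 (0.731 to 1.34) and 1.10 (0.843 to 1.43) for the ECI3 pair. Potri.019G079300, a Sec14-like phosphatidylinositol transfer protein, was higher, with 112 and 97.1 CPM against 54.0 CPM. Potri.002G032900, an inositol-pentakisphosphate 2-kinase, which makes phytic acid and belongs to lipid chemistry only by the word inositol, had 62.1 and 64.8 CPM against 37.9 CPM.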

How the data were processed

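Per the file headers, the deposited table of counts holds whole-number reads per gene for 3 libraries, 1 column each, and no other column of sample values was found. FastQC, TopHat and edgeR are the tools that the submitters' processing notes mention. The sources used here give no version, genome build, annotation or counter, and do not say whether counting used strand, although the labels name a directional kit. The log2 fold change, the average log2 CPM, the p-value and the FDR of 2151 genes are the authors', per the file headers. That table is the one source of names and descriptions used here.

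Counts were fitted with edgeR 4.0.16 in R 4.3.3, using filterByExpr (minimum count 10), TMM scaling and the quasi-likelihood F-test of both RNAi libraries against wild type, with Benjamini-Hochberg adjustment over 23089 genes. The fit has 1 residual degree of freedom, from KD2 against KD5, and assumes that wild type varies like them. The common dispersion was 0.013. SE is the log2 fold change over the square root of F. Calls and signs of the fit, but not the SE, were tested on simulated counts. Those had the same dispersion, 0.013, for every gene and no trend with abundance, so the check does not bear on the calls in these data. CPM uses library size and TMM factor. Intervals are exact at 95% and cover counting error only, and 3 counts correspond to 0.63 CPM (KD2), 0.615 CPM (KD5) and 0.488 CPM (wild type). With 1 library a genotype and 2 RNAi lines, any spread may be technical as well as biological.

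Members and lists were chosen with earlier results of these data known. Roles were assigned by words, and 10 members were moved by hand after their descriptions were read. Named genes were, in each role, the 3 of highest mean CPM and, among those with at least 5 CPM, the 4 of largest change in each direction, with the lowest and highest FDR. All 49 members are given here, so 18 beyond the 31 so named were added after their values were seen. Of other lists, at most 3 genes of highest CPM were named, together with tissue markers. The count of members whose KD2 to KD5 interval lies clear of 1 was chosen after seeing the data. Alternatives covered scaling, filter, test, threshold and left-out libraries, with DESeq2 1.42.0 and limma 3.58.1. No sequence is shown.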

Additional observations from a re-analysis of the deposited data

How the results depend on the processing

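The 12 higher and 33 lower member calls stayed within 1.5 times under RLE and upper quartile scaling, a filter of at least 5 CPM in 2 libraries, limma voom, and without the N-acyltransferases. Loess normalization left 7 higher, a threshold of at least 2-fold left 6 higher and 7 lower, and DESeq2 called 0 higher and 9 lower, with 8 and 27 at an unadjusted p under 0.05 and 23 members without an adjusted p. Without a filter on low counts edgeR called 0 in either direction, with 12 higher and 37 lower at an unadjusted p under 0.05. The cause was not tested. Shares of all genes were not counted for the fit without a filter, the 2-fold threshold or the unadjusted limits. Since this contrast chose the members, nothing beyond that choice is read from these counts. The median log2 fold change of the members was -0.79, and -0.58 with size-only scaling, -0.62 with loess and -0.73 with the 5 CPM filter. Log2 ratios of 1 RNAi library to wild type, with no test, gave medians from -0.78 (KD5 left out) to -0.71 (KD2 left out). None of the 47 tested members changed sign under the scaling, filter and test alternatives in which it was fitted, or with either RNAi library left out. Wild type has 1 library, so it could not be left out, and at this depth members with under 20 counts in a library have wide intervals. No paired analysis was possible because the groups share only 1 replicate number, which is a name in accession order.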
